A study of Mus musculus with 2 samples.

Results

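Single-cell RNA-seq of mouse fracture callus was examined for 10 genes of bone and cartilage mineralization: the SIBLING (small integrin-binding ligand, N-linked glycoprotein) genes Spp1, Ibsp, Dmp1 and Mepe, the protease-like gene Phex, the phosphatase and pyrophosphate genes Alpl and Enpp1, the matrix vesicle enzymes Phospho1 and Smpd3, and the osteoblast membrane gene Ifitm5. The 10 genes were chosen by symbol, and all 10 were present once among the 32285 genes of each count matrix. Levels were described in hypertrophic chondrocytes (those with abundant Col10a1), other chondrocytes, osteoblasts and the other cell classes that marker genes define, in each library on its own. The calluses came from wild-type mice with a femoral fracture and no other treatment, which the study's methods give as adult male C57BL/6J animals. The design covered callus at 10 days (n = 5 mice) and 20 days (n = 5 mice) after fracture, and the 2 libraries carry the titles MGJ and MGJ2. No label ties a library to a day, and mice cannot be told apart by barcode, so no comparison between days or between mice was made, and every value below describes 1 library without a replicate.

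Mineral in growing or healing bone forms first inside and around matrix vesicles, small membrane particles shed by hypertrophic chondrocytes and osteoblasts. Phosphate for the mineral is released by enzymes on and in these vesicles, while pyrophosphate, made outside the cell by ENPP1, holds crystal growth back until the alkaline phosphatase ALPL splits it. The SIBLING proteins are acidic, heavily phosphorylated proteins of the mineralizing matrix that bind calcium and integrins, and in a fracture callus they mark the steps at which cartilage mineralizes and is replaced by bone.

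The SIBLING genes lie side by side. In GENCODE M21 on GRCm38, Dmp1 lies at chr5:104202613-104214102, Ibsp at chr5:104299171-104311469, Mepe at chr5:104325329-104338611 and Spp1 at chr5:104435118-104441050, all on the plus strand, and with Dspp (the dentin member of the family) the 5 genes span 270 kb. Because these neighbours differed so much in level, the 250 bases before a RefSeq start of each of the 4 are printed here, on GRCm38.p6 and on the plus strand, with every TGTGGT (the core that RUNX factors bind) and every TATAAA, on either strand, in capitals. The windows are chr5:104434861-104435110 for Spp1, chr5:104299037-104299286 for Ibsp, chr5:104202367-104202616 for Dmp1 and chr5:104325079-104325328 for Mepe.
Spp1: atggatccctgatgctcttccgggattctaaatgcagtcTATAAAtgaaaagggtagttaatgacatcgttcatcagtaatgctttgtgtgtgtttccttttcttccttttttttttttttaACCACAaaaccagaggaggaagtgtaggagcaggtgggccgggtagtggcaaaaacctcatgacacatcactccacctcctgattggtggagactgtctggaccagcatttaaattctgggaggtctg
Ibsp: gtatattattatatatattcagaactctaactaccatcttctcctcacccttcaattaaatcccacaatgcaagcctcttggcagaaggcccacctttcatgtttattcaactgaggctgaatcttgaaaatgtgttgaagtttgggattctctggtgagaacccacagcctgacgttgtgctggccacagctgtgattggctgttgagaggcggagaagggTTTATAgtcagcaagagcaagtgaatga
Dmp1: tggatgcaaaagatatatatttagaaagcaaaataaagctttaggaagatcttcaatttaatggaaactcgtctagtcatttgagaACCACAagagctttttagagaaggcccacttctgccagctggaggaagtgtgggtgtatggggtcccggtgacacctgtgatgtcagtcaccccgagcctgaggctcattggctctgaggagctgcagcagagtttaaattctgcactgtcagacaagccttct
Mepe: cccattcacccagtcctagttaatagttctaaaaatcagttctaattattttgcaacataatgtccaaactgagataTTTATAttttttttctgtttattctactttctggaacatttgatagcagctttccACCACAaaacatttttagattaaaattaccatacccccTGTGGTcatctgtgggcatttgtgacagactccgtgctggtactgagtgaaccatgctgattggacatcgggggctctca
The Spp1 window, before the first of its RefSeq starts, held the RUNX letters 128 bases and the TATA letters 211 bases before that start, and the window before its second start held neither. In the Ibsp window only the TATA letters were found, 28 bases before the start. Dmp1 had the RUNX letters at 164 bases in the window before its second RefSeq start, which is the one printed, while the window before its first start held neither motif. Mepe had them at 118 and 80 bases and the TATA letters at 173 bases. Of 27025 promoter windows of the same length, 14.2% held the RUNX letters and 12.97% the TATA letters, so either match is common and is given as a description of these sequences only.

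The matrices held 14295 barcodes with 135304426 UMIs (unique molecular identifiers, 1 count per captured RNA molecule) in library MGJ and 8009 barcodes with 61130834 UMIs in library MGJ2. Of 22304 barcodes, 20904 were kept, and 13 barcode sequences among the kept cells occurred in both libraries. Library MGJ gave 552 hypertrophic-like, 2044 other chondrocyte-like and 103 osteoblast-like cells, and library MGJ2 gave 67, 54 and 25. The 25 osteoblast-like cells of library MGJ2 are below the minimum of 50 set for a class, and their values are given as those of a small group. A further 33.5% of kept cells in library MGJ and 2.97% in library MGJ2 stayed unnamed, and most of those of library MGJ lay in 2 clusters led by the neutrophil list with few UMIs per cell. Levels are UMIs per 1000000 UMIs of the class (CPM, counts scaled to that total). The unnamed cells were not only of the neutrophil kind. Those of library MGJ held 19984 CPM of Col2a1 and 2826 CPM of Col10a1, where the 2 clusters had 915 and 960 CPM of Col2a1. They also held 33316 of the 281176 Ibsp UMIs of its kept cells. Unnamed cells of library MGJ2 had 11196 CPM of Col2a1 with 9669 CPM of Col10a1. How many cartilage cells were left unnamed was not tested. Intervals are exact 95% intervals and cover counting error only, and fewer or more transcripts per cell cannot be told apart from a different mix of cells within a class.

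The labels of the 3 skeletal classes were checked against their marker lists. Col10a1, the collagen of hypertrophic cartilage, stood at 24977 CPM in hypertrophic-like cells against 1283 CPM in the other chondrocyte-like cells (library MGJ), and at 34835 against 1978 CPM in library MGJ2. Of the other 5 genes of that marker list, Ihh, Mmp13 and Pth1r were also higher in hypertrophic-like cells of both libraries. Panx3 was higher in library MGJ (351 against 212 CPM) but lower in library MGJ2 (357 against 490 CPM), and Sema3d was lower in both (16.4 against 45.9 CPM and 16.7 against 107 CPM). All 8 osteoblast markers had UMIs in the osteoblast-like cells of library MGJ and 7 of 8 in library MGJ2, where Bglap3 was at 0, and their summed level was 63904 and 84668 CPM against 7466 and 8529 CPM in hypertrophic-like cells. The osteoblast-like cells also carried cartilage transcripts. The 9 chondrocyte markers, none at 0, summed to 34711 CPM there in library MGJ and 40223 CPM in library MGJ2, against 83999 and 88519 CPM in other chondrocyte-like cells. How far cartilage cells or cartilage RNA contribute to the osteoblast-like values was not tested. The osteoblast-like class is 1 sub-cluster whose 10 leading genes include Dmp1, Ifitm5 and Ibsp, and although the 10 genes were kept out of the clustering, their levels in this class are a description and no independent sign of its identity.

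Spp1 encodes osteopontin, an acidic matrix protein that binds integrins and CD44 and is made by bone cells and by phagocytes. Its level in library MGJ was 24627 CPM (24398 to 24858) in osteoblast-like cells, 14113 CPM (14044 to 14181) in hypertrophic-like cells and 3934 CPM (3915 to 3953) in the other chondrocyte-like cells. Library MGJ2 gave 21328, 19668 and 4318 CPM in the same order. Spp1 was thus high in both osteoblast-like and hypertrophic-like cells, but among the 10 genes it was the one that also stood high outside the skeletal classes. Neutrophil-like cells reached 8062 CPM and macrophage-like cells 6554 CPM in library MGJ, both above the other chondrocyte-like cells, and neutrophil-like cells reached 6267 CPM in library MGJ2. Fibroblast-like cells of library MGJ stood at 3780 CPM. Among classes with 50 or more cells, the lowest of the 18 in library MGJ, dendritic cell-like cells, still held 252 CPM, and in library MGJ2 the lowest of the 15 classes, pre-B cell-like cells, held 52.5 CPM. Neighbours in this order that were not told apart in library MGJ were immature neutrophil-like, erythroid-like and osteoclast-like cells, then B cell-like and myeloid progenitor-like cells, and then T cell-like, pre-B cell-like and endothelial-like cells.

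Ibsp encodes bone sialoprotein, a SIBLING protein that seeds hydroxyapatite crystals. In library MGJ it stood at 28996 CPM in osteoblast-like cells, at 10202 CPM in hypertrophic-like cells and at 1509 CPM in the other chondrocyte-like cells. In library MGJ2 the levels were 22769, 8617 and 3138 CPM. The order of the 3 classes was the same in both libraries, with no overlap of intervals. Unlike Spp1, Ibsp was far lower in the other classes of at least 50 cells, with 500 CPM in fibroblast-like cells and 91.7 CPM in neutrophil-like cells (library MGJ), and with 18.3 CPM in the neutrophil-like cells of library MGJ2. The osteoblast-like cells, 103 of 13320 kept cells in library MGJ, held 18.5% of that library's Ibsp UMIs, and the hypertrophic-like cells held 42.2%.

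The balance of the 2 genes differed between skeletal and myeloid classes. For every 100 Spp1 UMIs, library MGJ had 118 Ibsp UMIs in osteoblast-like cells, 72.3 in hypertrophic-like cells, 38.4 in other chondrocyte-like cells and 13.2 in fibroblast-like cells. Neutrophil-like and macrophage-like cells had 1.14 and 0.98. In library MGJ2 the values were 107 in osteoblast-like, 43.8 in hypertrophic-like, 72.7 in other chondrocyte-like and 0.29 in neutrophil-like cells, so the order of the chondrocyte classes turned around between the libraries. Spp1 UMIs per 1000 Col2a1 UMIs were 72.1 in other chondrocyte-like and 271 in hypertrophic-like cells and 11518 in neutrophil-like and 12830 in macrophage-like cells of library MGJ.

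**Figure D1:**
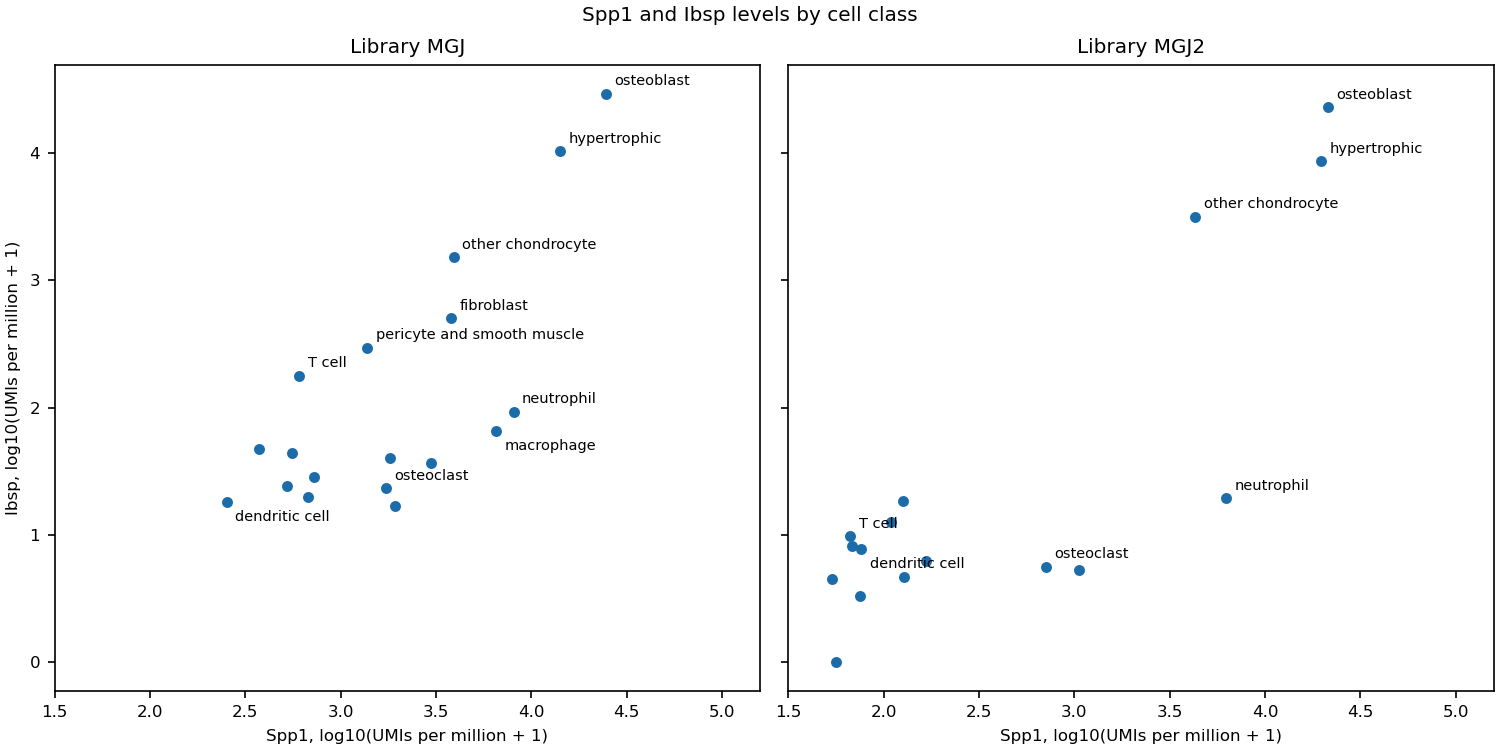
Spp1 level (horizontal axis) against Ibsp level (vertical axis), both as log10(CPM + 1), 1 point per named cell class, in library MGJ (left) and MGJ2 (right). Classes of under 50 cells other than osteoblast-like cells are left out and only some points are labelled. Osteoblast-like and hypertrophic-like cells lie at the top right, while neutrophil-like cells have high Spp1 (8062 and 6267 CPM) with little Ibsp (91.7 and 18.3 CPM).

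Dmp1 encodes a SIBLING protein of late osteoblasts and osteocytes that is needed for phosphate balance. It was at 429 CPM (399 to 460) in osteoblast-like cells, 40.0 CPM (36.5 to 43.8) in hypertrophic-like cells and 4.36 CPM (3.76 to 5.03) in the remaining chondrocyte-like cells of library MGJ. The levels in library MGJ2 were 524, 151 and 3.32 CPM, the last from 5 UMIs. As a summed level Dmp1 therefore fell by steps from osteoblast-like to hypertrophic-like to other chondrocyte-like cells in each library. The first step of library MGJ2 rests on few cells. Its UMIs came from few cells. In library MGJ2, 5 of the 25 osteoblast-like cells had a Dmp1 UMI, and the 3 cells with the most held 99.1% of the 351 UMIs. Of the 67 hypertrophic-like cells there, 25 had a Dmp1 UMI. In the osteoblast-like cells of library MGJ, the 11 cells with the most Dmp1 UMIs held 79.8% of them, and the median cell had none. The same share, with cells ranked by UMIs of the gene, was 38.2% for Spp1 and 27.8% for Alpl.

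Mepe, the SIBLING gene of osteocytes whose protein yields a mineral-binding peptide, was close to absent. Library MGJ held 18 Mepe UMIs in all kept cells, 12 of them in 3 osteoblast-like cells (6.70 CPM, 3.46 to 11.7), 4 in other chondrocyte-like cells and 2 in unnamed cells. Hypertrophic-like cells had 0, which allows up to 0.258 CPM. Library MGJ2 had no Mepe UMI, which in its 25 osteoblast-like cells allows up to 4.48 CPM, a level inside the interval of library MGJ, so a difference was not detectable at this depth.

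Phex encodes an endopeptidase-like membrane protein that binds the acidic peptide of MEPE and limits the hormone FGF23. It followed Dmp1 in order but not in steepness, at 130 CPM (114 to 148) in osteoblast-like, 78.5 CPM (73.5 to 83.8) in hypertrophic-like cells and 7.03 CPM (6.26 to 7.87) in the remaining chondrocyte-like cells of library MGJ. In library MGJ2 it was at 188, 116 and 26.5 CPM. Hypertrophic-like cells held 55.2% of all Phex UMIs of library MGJ and 47.6% of those of library MGJ2. No named class of at least 50 cells outside the skeletal ones and NK cell-like cells (4.65 CPM, from 1 UMI) exceeded 2.32 CPM in library MGJ.

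Alpl encodes tissue-nonspecific alkaline phosphatase, which splits pyrophosphate and frees phosphate. Its levels in the 2 mineralizing classes were close, with 1057 CPM (1009 to 1105) in osteoblast-like and 1194 CPM (1174 to 1214) in hypertrophic-like cells of library MGJ, against 1554 and 1336 CPM for library MGJ2. Other chondrocyte-like cells had 461 and 762 CPM. Among the other classes of at least 50 cells, erythroid-like cells (93.3 CPM, from 31 UMIs) and fibroblast-like cells (86.4 CPM) came next in library MGJ, and pre-B cell-like cells (40.3 CPM) in library MGJ2. The erythroid-like cells also held 5330 CPM of Col2a1, against 700 CPM in neutrophil-like cells of library MGJ. Whether their Alpl came with this cartilage RNA was not tested. Marrow stromal-like cells, of which there were 5 in library MGJ and 19 in library MGJ2, had 1280 and 874 CPM.

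Enpp1 encodes the pyrophosphate-producing enzyme that opposes ALPL. Its highest level of library MGJ was in fibroblast-like cells (198 CPM), followed by osteoblast-like (134 CPM), other chondrocyte-like (113 CPM) and hypertrophic-like cells (85.7 CPM). In library MGJ2, where only 7 fibroblast-like cells were found, hypertrophic-like cells led with 310 CPM, ahead of other chondrocyte-like (167 CPM) and osteoblast-like cells (145 CPM). Within the fibroblast-like class of library MGJ, a sub-cluster of 116 cells led by Prg4, the joint-surface lubricin gene, had 484 CPM of Enpp1 and 11685 CPM of Spp1. That sub-cluster was singled out after its values were seen.

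Phospho1, the vesicle phosphatase that frees phosphate from phosphocholine, was hardly counted. It had 26 UMIs in the kept cells of library MGJ, 7 of them in hypertrophic-like, 8 in other chondrocyte-like and 2 in osteoblast-like cells, and 15 UMIs in library MGJ2. Its intervals overlap between hypertrophic-like cells (0.60 CPM, 0.24 to 1.24) and other chondrocyte-like cells (0.19 CPM, 0.08 to 0.37) of library MGJ. No statement about its distribution can be made at this depth.

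Smpd3 encodes neutral sphingomyelinase 2, which is thought to supply the phosphocholine that PHOSPHO1 uses. In library MGJ it stood at 653 CPM (638 to 668) in hypertrophic-like, 347 CPM (342 to 353) in other chondrocyte-like and 327 CPM (301 to 355) in osteoblast-like cells, the last 2 not told apart. In library MGJ2 other chondrocyte-like cells led with 997 CPM, followed by osteoblast-like (928 CPM) and hypertrophic-like cells (777 CPM). Chondrocyte-like and osteoblast-like cells together stood far above the rest. The next named class, erythroid-like cells, had 108 CPM in library MGJ, and no other named class of at least 50 cells exceeded 4.97 CPM in library MGJ2. The erythroid-like value rests on 36 UMIs in a class with 5330 CPM of Col2a1, and the source of these UMIs was not tested.

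Ifitm5 encodes BRIL, a small osteoblast membrane protein whose gene is mutated in a form of brittle bone disease. It was at 325 CPM (300 to 353) in the osteoblast-like cells of library MGJ but at 1.55 CPM in hypertrophic-like cells and 3.26 CPM in the remaining chondrocyte-like cells. Library MGJ2 gave 227, 1.01 and 0.66 CPM. Ifitm5 was thus the gene of the 10 that separated the osteoblast-like from the hypertrophic-like class most widely. In library MGJ2 low levels were also counted in basophil and mast cell-like (14.3 CPM), dendritic cell-like (9.73 CPM) and neutrophil-like cells (7.29 CPM). Ifitm5 has relatives in the Ifitm family, and how reads that match more than 1 of them were counted was not examined.

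**Figure D2:**
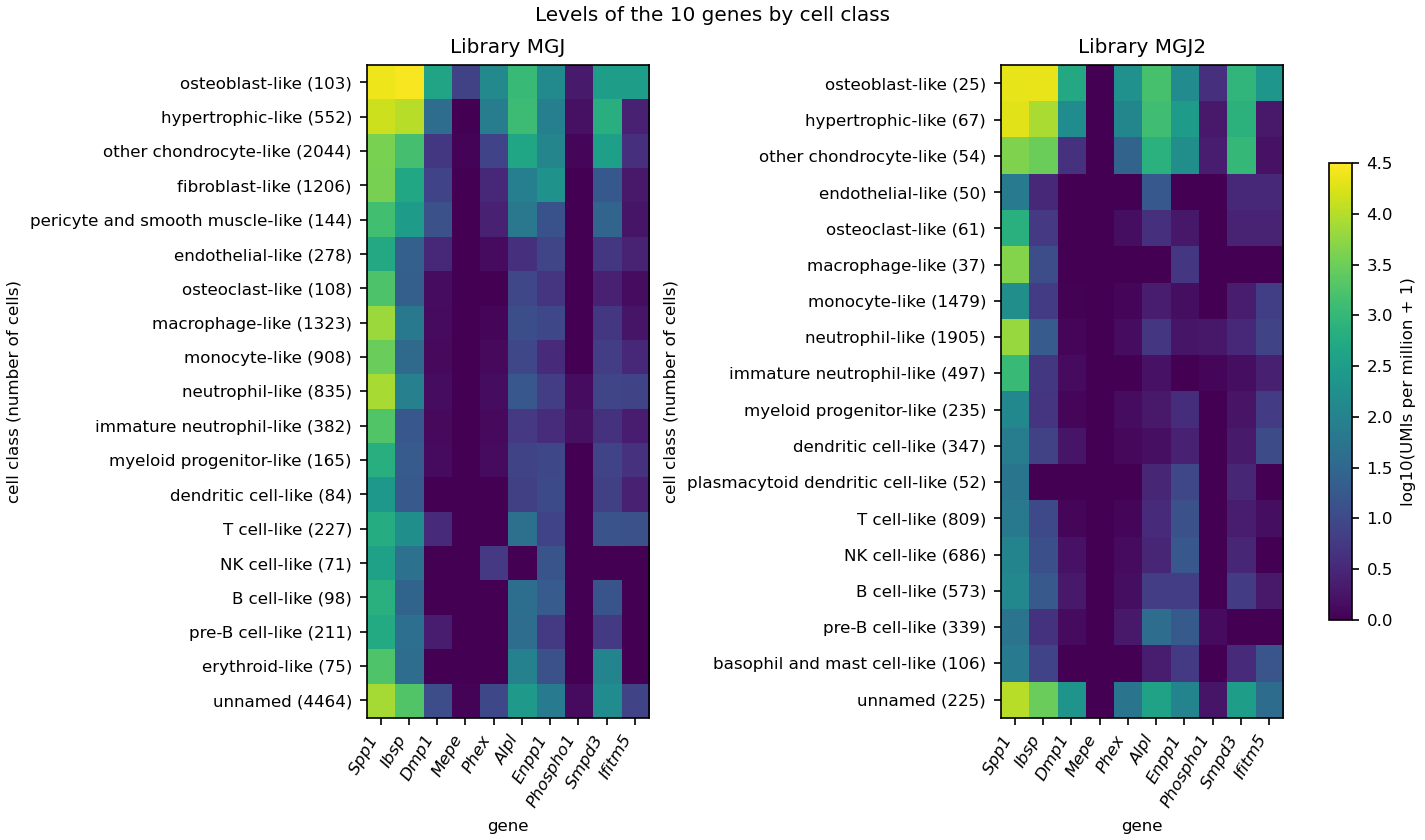
Level of each of the 10 genes (columns) in each cell class (rows, number of cells in brackets) of library MGJ (left) and MGJ2 (right), as log10(CPM + 1), with brighter colour for a higher level. Spp1 and Ibsp are bright in the top rows, Spp1 stays bright in neutrophil-like and macrophage-like cells, and Mepe and Phospho1 are dark in nearly every row.

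The first comparison set hypertrophic-like cells against the other chondrocyte-like cells. A gene was counted as higher at a ratio of at least 2 and as lower at a ratio of at most 0.5, among genes with at least 50 UMIs over both sets of cells. In library MGJ 8 of the 10 genes reached 50 UMIs (Mepe and Phospho1 did not), and 5 of the 8 were higher and 1 lower, where 6.74% of 12321 genes were higher and 10.8% lower. In library MGJ2 7 of 10 reached 50 UMIs (Ifitm5 did not either), and 4 of the 7 were higher and 0 lower, where 7.56% of 6028 genes were higher and 7.28% lower. Of these 4 genes, Dmp1 (299 against 5 UMIs) and Phex (229 against 40 UMIs) passed the limit of 50 UMIs only through the hypertrophic-like cells. The median ratio of the members counted was 3.09 in library MGJ against 0.939 for all genes, and 2.75 against 0.995 in library MGJ2. The classes were made from the same cells, so these ratios carry no test.

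The 4 genes higher in both libraries were Phex, Dmp1, Ibsp and Spp1. Phex was 11.2 times as high (9.79 to 12.8) in library MGJ and 4.37 times (3.11 to 6.27) in library MGJ2. Dmp1 was 9.18 times (7.73 to 10.9) and 45.6 times (19.3 to 141) as high, the latter from 299 against 5 UMIs. With the third of chondrocyte-like cells that held most Col10a1 taken as hypertrophic, the Dmp1 ratio of library MGJ2 turned to 0.812 and the Phex ratio to 1.24. When each cell was classed by its own highest marker score, they were 1.92 and just under 2. Ibsp was 6.76 times (6.70 to 6.83) and 2.75 times (2.66 to 2.84) as high, and Spp1 3.59 times (3.56 to 3.61) and 4.55 times (4.44 to 4.68). The Ibsp ratio of library MGJ2 fell just under the limit, to 1.92 at a clustering resolution of 0.5 and to 1.99 with the 10 genes and the pathway genes allowed in the clustering. Spp1 alone of the 4 genes stayed past the limit in both libraries under every alternative tried.

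The enzymes were less even. Alpl was 2.59 times as high (2.53 to 2.65) in library MGJ, or 1.85 times with cells classed by their own score, and 1.75 times (1.64 to 1.88) in library MGJ2. Smpd3 was 1.88 times as high (1.83 to 1.93) in library MGJ but stood at 0.779 of the other chondrocyte-like level (0.725 to 0.837) in library MGJ2. Enpp1 went the other way, at 0.761 (0.710 to 0.815) in library MGJ, whereas library MGJ2 gave 1.86 (1.60 to 2.16). Ifitm5 was at 0.475 (0.273 to 0.778) in library MGJ, from 18 against 139 UMIs, and that direction turned to 4.18 when each cell was classed by its own highest marker score and to between 1.08 and 1.45 under 3 other sub-clustering procedures.

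Several of these ratios moved when the sub-cluster of other chondrocyte-like cells with the highest Spp1 was left out of each library, a choice made after the values were seen. In library MGJ a sub-cluster of 54 cells led by Hp, Saa3, Chil1 and Lcn2, genes of acute-phase and neutrophil granule proteins, had 39430 CPM of Spp1 and held 26.6% of the Spp1 UMIs of the class. Without it the Spp1 ratio was 4.76. Leaving out the sub-cluster of highest Spp1 raises the Spp1 ratio of either library by construction. In library MGJ2, 26 of the 54 cells belonged to a sub-cluster whose best list was hypertrophic but whose score stayed below the limit for naming. The same sub-cluster also held cells of library MGJ, which were kept among the other chondrocyte-like cells of that library. Without those 26 cells the ratios in library MGJ2 were 8.77 for Spp1, 7.83 for Ibsp, 13.4 for Phex and 2.86 for Alpl, and Smpd3 turned to 1.17. Another sub-cluster of the class, 274 cells of library MGJ, had the fibroblast list as its best. Whether these cells belong with the other chondrocyte-like cells was not tested.

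**Figure D3:**
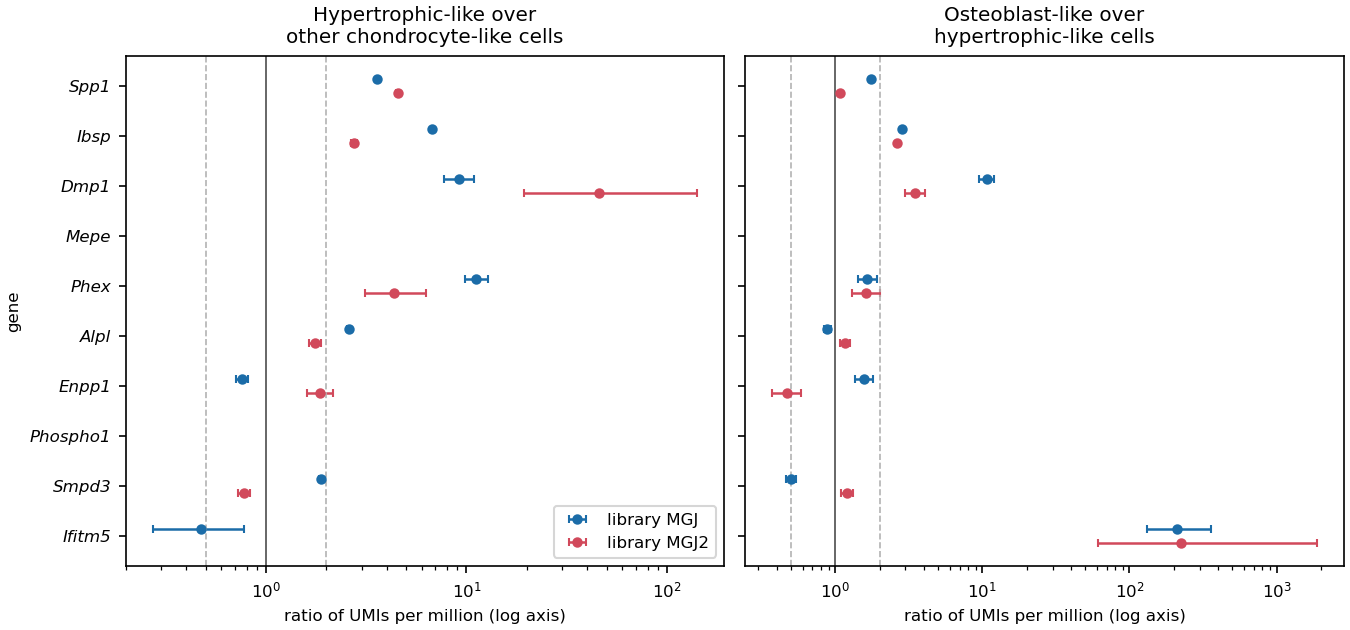
Ratio of CPM (horizontal axis, log scale) for each gene (rows) in hypertrophic-like over other chondrocyte-like cells (left) and in osteoblast-like over hypertrophic-like cells (right), with exact 95% intervals, for library MGJ (blue) and MGJ2 (red). The solid line marks 1 and the dashed lines 0.5 and 2. Genes with under 50 UMIs over both sets of cells are left blank, and the Ifitm5 points of the right panel lie at 210 and 224.

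Along the Col10a1 content of single cells the same genes did not all move at once. The chondrocyte-like cells of library MGJ were split into 5 bins of 519 or 520 cells by rising Col10a1 share. Spp1 stood at 3589, 3303, 3539, 5714 and 14294 CPM from the lowest to the highest bin, and Ibsp at 945, 971, 1010, 3415 and 10325 CPM. Both were flat over the first 3 bins and highest in the last. Phex rose from 3.96 CPM in the first bin to 75.4 CPM in the last and Dmp1 from 0.54 to 34.4 CPM. Alpl went from 305 to 1221 CPM. Smpd3 was as high in the fourth bin (678 CPM) as in the last (639 CPM), and Enpp1 was lowest in the last bin (85.3 CPM against 118 CPM in the first). In library MGJ2, with 3 bins of 40 or 41 cells, Spp1 again was highest in the last bin (4612, 9128 and 23203 CPM). Dmp1 (12.97, 174 and 76.3 CPM), Phex (26.9, 114 and 87.7 CPM), Alpl (461, 1692 and 1099 CPM) and Smpd3 (663, 1262 and 719 CPM) were highest in the middle bin, and Enpp1 in the last (200, 203 and 324 CPM). The bins hold few cells in library MGJ2, and their intervals do not cover differences between cells.

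**Figure D4:**
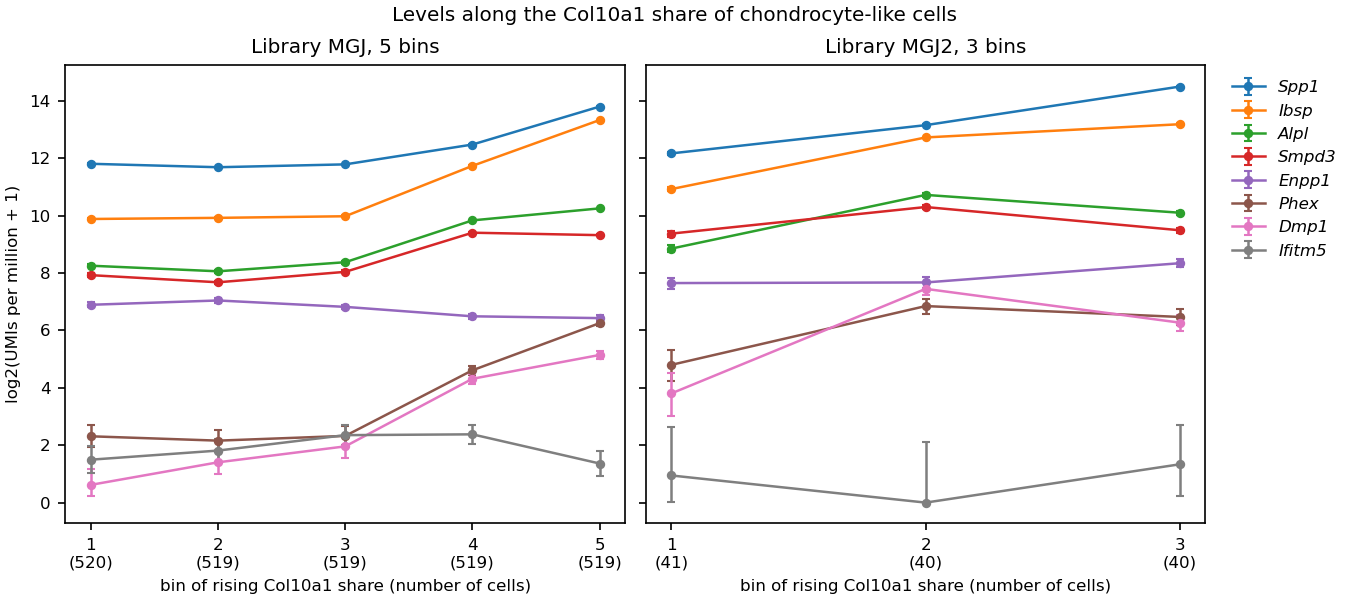
Level of 8 of the 10 genes, as log2(CPM + 1), in chondrocyte-like cells binned by rising Col10a1 share (horizontal axis, number of cells in brackets) for library MGJ (left, 5 bins) and MGJ2 (right, 3 bins), with exact Poisson 95% intervals. In library MGJ Spp1, Ibsp, Phex and Dmp1 are highest in the last bin, while Enpp1 is lowest there. In library MGJ2 Dmp1, Phex, Alpl and Smpd3 are highest in the middle bin.

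The second comparison set osteoblast-like cells against all other kept cells. In library MGJ 6 of the 8 genes with at least 50 UMIs were at least 2 times as high, where 5.6% of 14737 genes were. In library MGJ2 8 of 8 were, where 18.3% of 13067 genes were. The ratios in library MGJ were 110 for Ifitm5 (96.8 to 126), 54.2 for Dmp1 (49.3 to 59.5), 16.4 for Ibsp, 11.9 for Phex, 4.65 for Spp1 and 3.36 for Alpl. Smpd3 (1.65) and Enpp1 (1.51) stayed under 2 there. The Enpp1 ratio turned below 1 (0.882 and 0.863) with 2 earlier sub-clusterings of the stromal cells, and as a mean over cells both genes passed the limit, at 2.997 for Enpp1 and 3.55 for Smpd3. In library MGJ2 the ratios were 49.95 for Ibsp, 49.5 for Dmp1, 47.8 for Ifitm5, 30.5 for Phex, 18.7 for Alpl, 15.1 for Smpd3, 11.4 for Spp1 and 6.72 for Enpp1. The share of all genes past the limit was also larger in library MGJ2.

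A direct comparison of the 2 mineralizing classes divided the genes. In library MGJ 3 of 8 genes, Ifitm5, Dmp1 and Ibsp, were at least 2 times as high in osteoblast-like as in hypertrophic-like cells, where 7.05% of 9191 genes were, and 0 of 8 were at most 0.5 times, where 9.37% of genes were. Ifitm5 was 210 times (132 to 358), Dmp1 10.7 times (9.53 to 12.0) and Ibsp 2.84 times (2.81 to 2.87) as high. Spp1 (1.75), Phex (1.66) and Enpp1 (1.56) were higher by less. Alpl (0.885) and Smpd3 (0.501, 0.460 to 0.545) were lower in osteoblast-like cells, Smpd3 just above the limit of 0.5. The 25 osteoblast-like cells of library MGJ2 gave 224 for Ifitm5 (61.1 to 1870), 3.47 for Dmp1, 2.64 for Ibsp, 1.62 for Phex, 1.08 for Spp1, 1.16 for Alpl, 1.19 for Smpd3 and 0.468 for Enpp1. Ifitm5 reached the minimum number of UMIs only through the osteoblast-like cells of either library. Library MGJ had 583 against 18 UMIs of this gene, and library MGJ2 had 152 against 2. The directions of Ifitm5, Dmp1, Ibsp, Phex and Spp1 were the same in both libraries, and those of Alpl, Smpd3 and Enpp1 were not. For Dmp1 in library MGJ2, 3 of the 25 osteoblast-like cells held 99.1% of the UMIs of that class.

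The third comparison set all chondrocyte-like cells, hypertrophic ones included, against all other cells. These other cells included the unnamed ones, which held 19984 CPM of Col2a1 in library MGJ and 11196 CPM in library MGJ2. The ratios thus set chondrocyte-like cells partly against cells with cartilage RNA, and how far this moved them was not tested. In library MGJ 4 of 8 genes were at least 2 times as high, where 12.8% of 14737 genes were: Smpd3 (8.06), Alpl (5.23), Phex (3.902) and Ibsp (2.66). Spp1 (1.18), Enpp1 (1.38), Dmp1 (0.812) and Ifitm5 (0.276) were not. The Dmp1 ratio lay on the other side of 1 under 8 alternatives. Enpp1 reached 3.09 as a mean over cells, and Spp1 2.67 with the level of neutrophil-like cells subtracted. In library MGJ2 7 of 8 genes were at least 2 times as high, where 19.8% of 13067 genes were, led by Smpd3 (43.2), Alpl (29.2) and Enpp1 (28.6), and Ifitm5 was at 0.111. The 2 genes of highest ratio, Smpd3 and Alpl, were the same in both libraries.

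Shares of cells with a UMI depend on depth, so each cell was thinned to 2000 UMIs and shallower cells were left out (5 osteoblast-like, 13 hypertrophic-like, 28 other chondrocyte-like and 310 neutrophil-like cells of library MGJ). Median depth before thinning was 16887 UMIs in osteoblast-like, 21050 in hypertrophic-like, 20573 in other chondrocyte-like and 2372 in neutrophil-like cells of library MGJ. Neutrophil-like cells served as a class assumed to lack Ibsp, Dmp1, Phex and Ifitm5, but not Alpl, since alkaline phosphatase is a known neutrophil enzyme. For Ifitm5 this assumption was not tested. Neutrophil-like cells stood above hypertrophic-like and other chondrocyte-like cells (7.30 against 1.55 and 3.26 CPM in library MGJ, 7.29 against 1.01 and 0.66 CPM in library MGJ2). Their share is therefore not taken as a background level of Ifitm5. An Ibsp UMI was found in 94.9% of osteoblast-like (88.5 to 98.3), 83.5% of hypertrophic-like (80.1 to 86.5), 26.8% of other chondrocyte-like (24.9 to 28.8) and 10.5% of neutrophil-like cells (7.99 to 13.4), against 96.1%, 92.4%, 54.8% and 12.9% before thinning. Alpl was found in 80.6%, 81.1%, 43.8% and 3.43%, against 92.2%, 96.4%, 75.3% and 4.55% before. Both genes were thus found more often in the 3 skeletal classes than in neutrophil-like cells, with intervals that did not overlap.

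Dmp1 was found in 19.4% of osteoblast-like cells (12.1 to 28.6), 4.27% of hypertrophic-like cells (2.72 to 6.33) and 0.446% of other chondrocyte-like cells (0.204 to 0.846), and in 0 of 525 neutrophil-like cells, which allows a share of up to 0.571%. The unthinned shares were 29.1%, 16.5%, 2.64% and 0.12%. Phex was found in 26.5%, 14.8%, 0.893% and 0.19% of the 4 classes (43.7%, 52.5%, 8.46% and 0.12% before thinning). In other chondrocyte-like cells the thinned Dmp1 and Phex shares lay within the 95% intervals of the neutrophil-like shares, so no difference in shares was detectable after thinning. Their levels over all UMIs did differ, at 4.36 and 7.03 CPM against 0.406 CPM (0.0103 to 2.26) for either gene in neutrophil-like cells. Ifitm5 was found in 32.7% of osteoblast-like cells (23.5 to 42.9) but in 0.557% of hypertrophic-like and 0.595% of other chondrocyte-like cells, both below the 1.52% of neutrophil-like cells (49.5%, 2.72%, 4.06% and 2.04% before thinning). Whether the Ifitm5 UMIs of the chondrocyte-like classes were background or made there was not tested. Mepe and Phospho1 were found in 0 of 539 hypertrophic-like cells after thinning, which allows up to 0.557%, and in 0% and 1.27% before.

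Spp1 was the exception. It was found in 85.5% of neutrophil-like cells (82.2 to 88.4), close to the 86.8% of hypertrophic-like cells (83.7 to 89.6) and above the 68.1% of other chondrocyte-like cells (66.02 to 70.1), with 96.9% in osteoblast-like cells (80.2%, 98.9%, 96.1% and 98.1% before thinning in the same order). A share in other chondrocyte-like cells at or below that of neutrophil-like cells cannot be read as expression from the share alone. How much of the Spp1 in neutrophil-like cells was taken up, free in the suspension or made there was not tested.

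In library MGJ2 the thinned shares were 95.8% of osteoblast-like, 87.9% of hypertrophic-like, 32.7% of other chondrocyte-like and 3.15% of neutrophil-like cells for Ibsp, and 95.8%, 92.4%, 53.8% and 62.0% for Spp1. Before thinning they were 100%, 95.5%, 46.3% and 4.57% for Ibsp and 100%, 98.5%, 90.7% and 59.8% for Spp1, at median depths of 28392, 27323, 26878 and 2342 UMIs. Dmp1 was found in 16.7% of both osteoblast-like (4.74 to 37.4) and hypertrophic-like cells (8.62 to 27.9) there (20.0% and 37.3% before thinning). Ifitm5 was found in 25% of osteoblast-like cells (9.77 to 46.7) and in 0 of 66 hypertrophic-like cells, which allows up to 4.55% (28.0% and 2.99% before thinning).

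**Figure D5:**
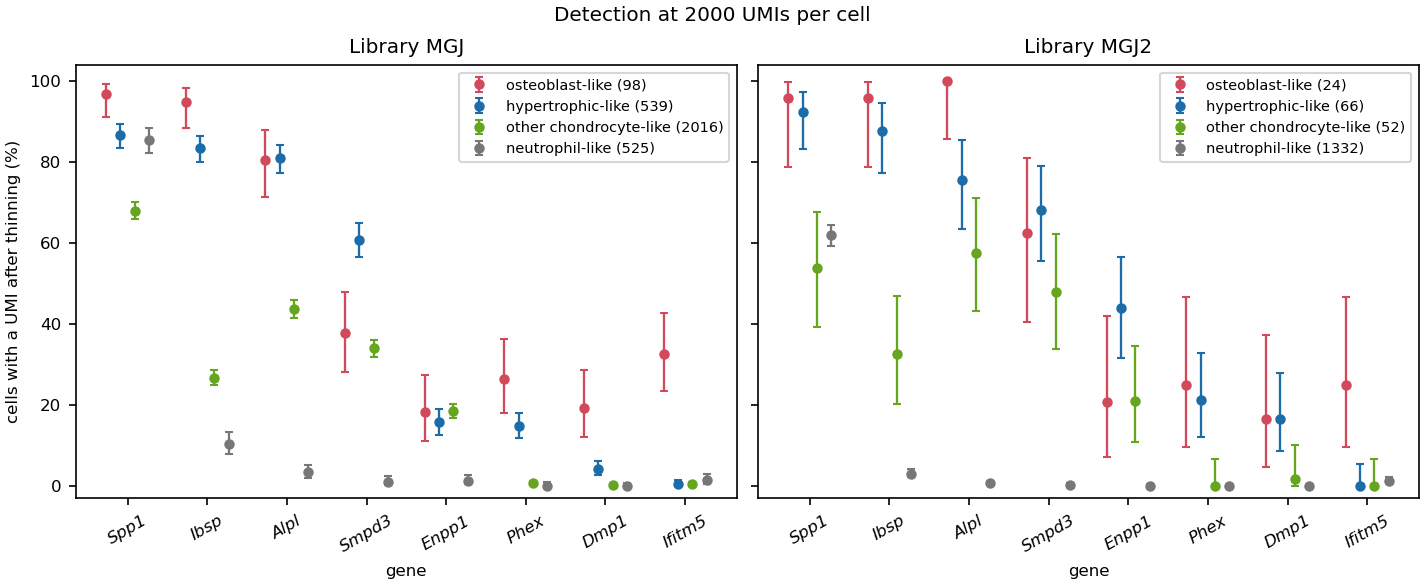
Share of cells with at least 1 UMI of a gene after thinning each cell to 2000 UMIs (vertical axis, percent, exact binomial 95% intervals) for 8 genes (horizontal axis) in 4 classes, with the number of cells in brackets, for library MGJ (left) and MGJ2 (right). The grey neutrophil-like points lie near 0 for every gene but Spp1 (85.5% and 62.0%) and Ibsp (10.5% and 3.15%), and the red osteoblast-like points stand alone for Ifitm5 (32.7% and 25%).

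Cells of a class differed widely among themselves. In the osteoblast-like cells of library MGJ, Spp1 ran from 2196 CPM at the tenth percentile through a median of 13980 to 64008 CPM at the ninetieth. In hypertrophic-like cells the same points were 204, 6722 and 44723 CPM, and in other chondrocyte-like cells 87.2, 823 and 8550 CPM. The ranges of the 3 classes overlap, and the class levels rest on cells with very high values. Among the 2044 other chondrocyte-like cells of library MGJ, the 205 cells with the most Ibsp UMIs held 89.5% of them. The median over all cells of that class was 37.8 CPM. In hypertrophic-like cells Alpl was the most even, with 23.6% of its UMIs in the top 56 of 552 cells, and in other chondrocyte-like cells Enpp1 was, with 38.0% in the top 205 against 41.5% for Alpl.

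Some of the genes were found in the same cells. Of the 19 thinned osteoblast-like cells of library MGJ with a Dmp1 UMI, 10 also had a Phex UMI and 8 an Ifitm5 UMI, where 26.5% and 32.7% of all 98 cells had these. Of the 23 hypertrophic-like cells with a Dmp1 UMI, 6 also had Phex, where 14.8% of cells did, and 0 had Ifitm5. These are counts of cells of 1 library and carry no test.

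Over the 33 points made by class and library (18 and 15 named classes of at least 50 cells), levels of the genes, as log2(CPM + 10), were correlated with each other as a description. Points of 1 library share its capture and depth. Pearson's r was highest for Alpl with Smpd3 (0.95), Ibsp with Alpl (0.93), Mepe with Ifitm5 (0.92) and Dmp1 with Phex (0.92), and lowest for Enpp1 with Ifitm5 (0.20). The values for Mepe rest on its 18 UMIs. Osteoblast-like cells give 1 of the 33 points, since those of library MGJ2 were too few. That point had 325 CPM of Ifitm5 and no other exceeded 14.3 CPM, so the values for Ifitm5 rest largely on it. By the rule that names the 3 genes of highest r outside the 10, Alpl was most like Pth1r (0.97), Smpd3 like Panx3 (0.99), Ibsp like Ddit4l (0.96) and Pth1r (0.96), and Phex like Vnn1 (0.97). Pth1r and Panx3 are on the marker list that named the hypertrophic-like class. Dmp1 was most like Msi1 (0.95), Ifitm5 like Ptprz1 (0.90), Enpp1 like Gm15867 (0.93) and Spp1 like Inhba (0.84). Spp1 had the lowest best match among the 8 genes, and the measure was not computed for Mepe and Phospho1.

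Of 48 further genes of the pathway, 47 were found in the matrices. In the comparison of hypertrophic-like with other chondrocyte-like cells, 40 had at least 50 UMIs in library MGJ, of which 6 were higher and 4 lower, where 6.74% of all genes were higher and 10.8% lower. In library MGJ2 29 did, of which 5 were higher and 2 lower, where 7.56% and 7.28% of all genes were. The counts of lower genes were close to these shares, and the median ratios were 0.940 and 1.05. Fam20c, the kinase that phosphorylates SIBLING proteins, was 2.96 times as high in library MGJ (192 against 65.0 CPM) and 5.67 times in library MGJ2. Among the integrin subunits that bind osteopontin, Itgb3 was 2.96 and 7.75 times and Itgb5 2.08 and 2.86 times as high. Fgfr1, a receptor for FGF hormones and growth factors, was 3.75 and 4.36 times as high, and Chka, choline kinase alpha, 2.02 and 2.14 times. Dlx3, a homeobox factor of skeletal cells, was 2.78 times as high in library MGJ. The lower genes were Mmp3 (0.0705), Itga9 (0.471), Ifitm2 (0.315) and Ifitm3 (0.364) in library MGJ and Ifitm2 (0.408) and Ifitm10 (0.457) in library MGJ2. Mgp, the matrix inhibitor of mineralization, stood at 8128 against 14622 CPM in hypertrophic-like and other chondrocyte-like cells of library MGJ. The same pair of levels was 8486 against 16697 CPM in library MGJ2.

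In osteoblast-like against hypertrophic-like cells of library MGJ, 37 of the pathway genes had at least 50 UMIs, of which 7 were higher and 3 lower, where 7.05% of all genes were higher and 9.37% lower. Galnt3, which glycosylates FGF23, was 6.09 times as high, Bmp1, a procollagen protease that also cleaves DMP1, 3.56 times, Ank, the pyrophosphate exporter, 2.32 times, Sp7, the osteoblast factor osterix, 2.08 times and Dlx3 2.14 times. Ifitm3 (3.47) and Ifitm2 (2.66) were also higher, and Chka (0.450), Mgp (0.490) and Ifitm10 (0.344) were lower. Runx2 and Runx3, the factors whose core letters were marked in the printed promoter sequences, differed less. Runx2 was at 94.9 CPM in osteoblast-like, 105 CPM in hypertrophic-like cells and 73.8 CPM in the remaining chondrocyte-like cells, and Runx3 at 43.0, 43.0 and 37.9 CPM. Dspp, the fifth SIBLING gene, and Sost, the sclerostin gene of osteocytes, had no UMI in the 3 skeletal classes of either library.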

How the data were processed

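Callus cells were dissociated by enzyme digestion and captured with 10x Genomics 3′ version 3 chemistry per the labels. The authors deposited 2 filtered matrices of raw UMI counts, with no normalization, whose headers name Cell Ranger 4.0.0 and whose processing notes name Cell Ranger, Seurat and GRCm38. The 2 libraries differ in total counts (135304426 and 61130834), and neither has a group in the labels, so there were no replicates, no test and no p-value. p-values, SDs and comparisons between days were not computed.

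From these counts, barcodes with fewer than 200 genes or over 20% mitochondrial UMIs were removed (371 and 464 in library MGJ, 70 and 133 in library MGJ2), as were Scrublet doublet calls (140 and 222, 1.04% and 2.84% of barcodes against an expected 10.8% and 6.24%, so many doublets may remain). Both libraries were clustered together on 2000 variable genes without the 10 genes and the 48 pathway genes (30 principal components, 15 neighbours, Leiden resolution 1, no integration). Chondrocyte and stromal clusters were sub-clustered at resolution 2 and classes named from 26 marker lists. Tools were Python 3.11.15, scanpy 1.11.5, leidenalg 0.10.2, igraph 0.11.9, scikit-learn 1.9.0, numpy 2.4.6, scipy 1.17.1, pandas 2.3.3 and matplotlib 3.10.9.

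This sub-clustering was the fourth procedure tried and was settled after clusters and values of the 10 genes had been seen. The 3 earlier ones gave 0, 77 and 79 osteoblast-like cells against 128 here, and their values are among the alternatives. The 10 genes, the marker and pathway lists and the comparisons were chosen with earlier results of these data known.

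A level is the summed UMIs of a gene per 1000000 UMIs of the class (CPM), with an exact Poisson 95% interval. Ratios have exact conditional binomial and shares exact Clopper-Pearson 95% intervals. The limit allowed by a count of 0 is 3 counts. Named genes were the 10 genes, the pathway list, the class markers where a class was checked and, for each gene with at least 100 UMIs in each library, the 3 other genes of highest correlation over classes. Sub-clusters and their leading genes were named after their values were seen. The ratio step was tested on simulated data. Promoter sequences came from a RefSeq table in which 9 of the 10 genes were matched. Smpd3 was not matched.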

Additional observations from a re-analysis of the deposited data

Results flagged for a closer look

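The barcodes removed by the filters and the doublet calls lie outside every comparison, and all but Mepe of the 10 genes had UMIs there in both libraries. In the 975 removed barcodes of library MGJ the 10 genes summed to 5582 CPM (5506 to 5658), against 8343 CPM in kept cells. In the 425 removed barcodes of library MGJ2 they summed to 1348 CPM (1307 to 1390), against 3029 CPM in kept cells. Spp1 made up most of them, with 3792 CPM in library MGJ and 1276 CPM in library MGJ2, and Ibsp stood at 1399 and 34.4 CPM. The cells behind these UMIs were not examined.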

How the results depend on the processing

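Across 15 other settings of the processing and 4 more chosen after the values were seen, 96 of the recomputed counts of genes past the 2-fold limit stayed within 1.5 times of the count reported and 2 did not. The count of genes higher in hypertrophic-like cells of library MGJ2 was 2 when each cell was classed by its own highest marker score and 2 when the top Col10a1 tertile of chondrocyte-like cells stood for the class, with Dmp1 and Phex under the limit in both settings. Of the recomputed ratios, 298 stayed within the interval reported, 364 moved out of it on the same side of 1 and 18 changed side; of the shares, thinned to 1000 in place of 2000 UMIs, 21 stayed and 19 moved. For Dmp1 in chondrocyte-like over all other cells of library MGJ, the ratio was 1.21 at resolution 0.5, 1.07 at resolution 2, 2.66 with cells classed by their own score, 1.04 with at most 10% mitochondrial UMIs and 1.81 as a mean over cells. It was 1.61 without sub-clustering and 1.59 and 1.44 with stromal clusters alone sub-clustered at 0.5 and at 1. The Ifitm5 ratio of hypertrophic-like over other chondrocyte-like cells of library MGJ was 4.18 with cells classed by their own score and 1.25, 1.08 and 1.45 under the 3 earlier procedures, and its ratio in chondrocyte-like over all other cells of library MGJ2 was 1.24 by cell score and 1.56 with sub-clusters led by other markers kept. Enpp1 in osteoblast-like over all other cells of library MGJ was 0.882 and 0.863 with stromal clusters alone sub-clustered. In library MGJ2, Dmp1 in hypertrophic-like over other chondrocyte-like cells was 0.812 with the Col10a1 tertile, and Smpd3 was 1.17 without the sub-cluster of highest Spp1. The cause of these changes was not tested. Depth limits Mepe and Phospho1, which had too few UMIs for any ratio, and the 25 osteoblast-like cells of library MGJ2. No paired analysis was possible because the labels give the 2 libraries no group and no replicate number.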

Other observations

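The chondrocyte-like sub-clusters of library MGJ differed in the 10 genes beyond the split by Col10a1, and were looked at after their values were known. A sub-cluster of 145 cells led by the cell cycle genes Ube2c, Birc5 and Top2a had low Spp1 (1572 CPM) and Ibsp (318 CPM), with 214 CPM of Alpl and 146 CPM of Enpp1. A sub-cluster of 424 cells led by H2-Ab1, Cdsn and Chrdl2 had 790 CPM of Alpl and 679 CPM of Smpd3, with 1776 CPM of Ibsp and 61.9 CPM of Enpp1. The largest sub-cluster, 916 cells led by Penk, Il11 and Has1, had 2306 CPM of Spp1, 374 CPM of Alpl and 121 CPM of Enpp1.

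Among the fibroblast-like sub-clusters of library MGJ, 410 cells led by Aspn, Igfbp5 and Ptn had 21.0 CPM of Dmp1, and the others of that class at most 0.569 CPM. The 152 Dmp1 UMIs of the whole class came from 12 of its 1206 cells. Among neutrophil-marker cells left unnamed for few UMIs, 2371 cells of library MGJ had 6433 CPM of Spp1 and 1416 cells had 13656.5 CPM. The latter value is above that of the named neutrophil-like cells.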
